A study of Danio rerio with 9 samples.

Results

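The 3 SBM libraries of zebrafish intestine were set against the 6 libraries of the D3 and FM groups, 3 from each, so that all 9 libraries of the study were used. The comparison asks which transcripts stood apart in SBM while D3 lay at the level of FM. Every library was made from total RNA of the intestine of Danio rerio with an mRNA sequencing kit. The title of the study names an enteritis brought on by soybean meal and a compound tried against it, Beta,Beta-Dimethylacryloyl shikonin, which derives from a red plant pigment. The labels give the groups only as the codes SBM, D3 and FM. Diet composition, which group received the compound, dose, duration, age, sex and strain were not stated in what was used here, nor whether a library came from 1 fish or from a pool. The p-values therefore measure only how these libraries vary, and part of that may be technical.

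The fish intestine is lined by absorptive enterocytes that take up lipid, peptides and sugars, with goblet, enteroendocrine and lysosome-rich cells between them and a lamina propria holding lymphocytes, macrophages and neutrophils. Enterocytes draw much of their energy from mitochondrial oxidative phosphorylation, in which 4 respiratory complexes pass electrons to oxygen and complex V makes ATP. Soybean meal in feed is known to inflame the gut of several fish species, where leucocytes enter the mucosa and absorptive functions decline. In whole-tissue RNA, fewer cells of a type and less RNA per cell cannot be told apart, and this holds for every value below.

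Total counts ran from 34436497 to 36203230 per library, and 19450 of 26983 genes passed the filter on low counts. Levels are given in CPM, counts scaled to library size, with TMM-scaled library sizes that correct for differences in composition. The intestinal genes fabp2, vil1, cdx1b and cdh17 were present in every library, at 1320 to 5480, 802 to 1810, 41.2 to 89.8 and 633 to 1580 CPM. The libraries of a group were not alike. SBM library 1 and D3 library 3 had a Spearman correlation of 0.975 across genes, against 0.869 to 0.92 among the 3 SBM libraries. The files do not settle whether both belong to the groups their labels give or hold RNA from tissue outside the intestine, and every SBM and D3 value carries that doubt. Ovary and oocyte marker genes took 0.559, 0.0189 and 0.0827% of counts in SBM, 0.0348, 0.0357 and 0.598% in D3, and 0.0129, 0.0176 and 0.0062% in FM. Hepatocyte markers took 0.421, 3.74 and 0.0538% in SBM, 2.08, 3.13 and 0.141% in D3, and 0.159, 0.345 and 0.0519% in FM. Results were therefore also computed without the libraries highest in either marker list, which are SBM 1 and D3 3 for ovary, and SBM 2, D3 1 and D3 2 for liver.

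No gene passed the test of SBM against D3 and FM together. The smallest adjusted p in edgeR's quasi-likelihood test was 0.9997, so 0 of 19450 genes were called (0%). At an unadjusted p under 0.05 there were 275 genes (1.41%), 143 higher (0.735%) and 132 lower (0.679%) in SBM. That share is smaller than the threshold of 0.05 would give with no difference at all, so the 275 genes are no sign of one. Nor does so low a share show that there is none, since a difference between D3 and FM adds to the test's spread. Counts in gene lists that are set beside these shares below are thus set beside low ones. With scaling by total library size alone these were 200 higher and 69 lower, so the balance of directions depended on the scaling. limma-voom called 0 genes and DESeq2 called 2, pcdh9 and si:dkeyp-98a7.4, which were looked at after their values were seen. The protocadherin gene pcdh9 had 1.79, 1.4 and 1.1 CPM in SBM, 0.415, 0.164 and 0.336 CPM in D3, and 0.429, 0.151 and 0.194 CPM in FM. Its SBM libraries lay above all the others, at a low level. In contrast, si:dkeyp-98a7.4 owed its difference to SBM library 1, with 51.9 CPM there, against 0.749 and 3.17 CPM in the other SBM libraries and at most 0.767 CPM in D3 and FM. Without SBM library 3, edgeR called 1 gene, rnasel2, at 21.7 and 94.5 CPM in SBM libraries 1 and 2 but 0.168 CPM in library 3. At an unadjusted p under 0.05 there were 505 genes without SBM library 2 (2.5%), 433 without SBM library 3 (2.14%) and 2881 without D3 library 3 (14.5%). Without SBM 1 and D3 3 together there were 712 (3.66%).

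As a description that needs no test, genes were counted in which all 3 SBM libraries lay outside the range of the 6 others. There were 148 such genes (0.761%), 51 with SBM above (0.262%) and 97 with SBM below (0.499%). With scaling by total library size alone the balance was the reverse, 87 above (0.447%) and 38 below (0.195%). The same count gave 421 genes for D3 (2.16%) and 2020 genes for FM (10.4%) when each was set against its 6 others. SBM was thus the group with the fewest genes of its own by this measure, and FM the one with the most. The measure also depends on how alike the libraries of a group are. Their Spearman correlations were 0.869 to 0.92 in SBM, 0.853 to 0.969 in D3 and 0.973 to 0.976 in FM. The ranking therefore does not give the size of the differences between groups. Log2 fold changes of the genes above had a median of 0.87 and ran from 0.17 to 3.42, and those below had a median of −0.54 and ran from −3.91 to −0.17. D3 lay within 0.25 log2 units of FM for 28 of the 51 genes above and 67 of the 97 below. Over all tested genes the share was 31.3%. The rule itself favours such genes, since a gene whose D3 and FM libraries are spread wide has a wide range to escape. Of the 97 genes below, 83 had a mean of at least 1 CPM. Most of the gaps were narrow. Between the SBM library and the other library nearest to each other, the median gap was 0.121 log2 units for the genes above. For the genes below it was 0.059. The gap exceeded 0.25 log2 units for 13 of the 51 genes above and 11 of the 97 below.

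The count of 148 changed with the libraries used. It was 532, 750 and 667 without SBM library 1, 2 or 3, where 2 SBM libraries remain to meet the condition. It was 231 without D3 library 2, 230 without FM library 2, and 1153 without D3 library 3. Without D3 library 3 there were 560 genes above (2.83%) and 593 below (2.99%). Leaving out D3 library 3 thus raised the count more than leaving out any other of the D3 and FM libraries did.

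**Figure D1:**
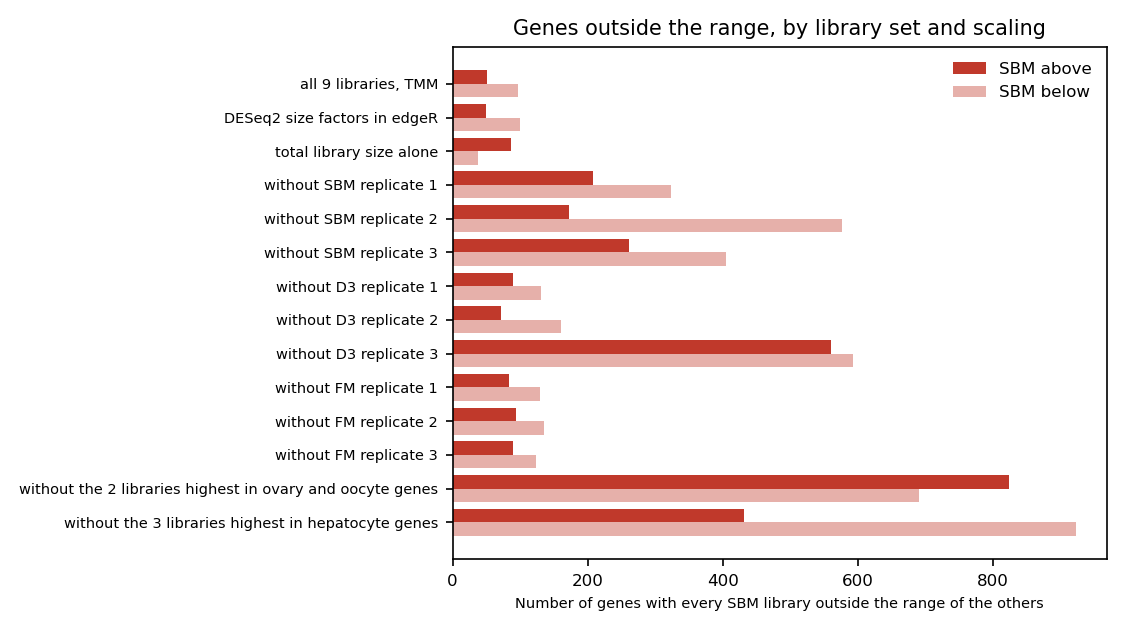
Number of genes (x axis) in which every SBM library lay above (dark bars) or below (light bars) all D3 and FM libraries, for each set of libraries or scaling (y axis). All 9 libraries gave 51 above and 97 below, and leaving out D3 replicate 3 gave 560 above and 593 below.

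The gene furthest below by p was ero1a, an oxidase of the endoplasmic reticulum that re-oxidises protein disulfide isomerase so that new disulfide bonds can form. It had 20.7, 28.2 and 30.2 CPM in SBM, 50.4, 48.6 and 45.8 CPM in D3, and 53.7, 39.4 and 41.9 CPM in FM. The groups were separated by a clear gap, and D3 and FM overlapped. SBM averaged 26.3 ± 4.96 CPM (SD, n = 3) against 46.6 ± 5.37 CPM in the 6 others, a level 1.77-fold lower. The log2 fold change was −0.82 ± 0.18 (SE), and its adjusted p in edgeR was 0.9997 (0.00115 before adjustment). It stayed between −0.95 and −0.66 in 20 alternative settings and had an unadjusted p under 0.05 in all of them. The gene was picked for its gap and its p in these same libraries, which the settings reuse, so this is no separate evidence. That holds for the other genes named for lying outside the range. The difference of D3 from FM was 0.10 ± 0.20, with a 95% interval of −0.36 to 0.56. The other genes of folding in the endoplasmic reticulum did not share this level: 24 of the 43 tested genes of that list were lower and 19 higher, with a median of −0.03 against −0.01 over all tested genes.

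Enzyme genes for glycolysis, haem synthesis and peroxide removal were also among the named lower genes. In their lists, 1 of 43 hypoxia and glycolysis genes (2.33%), 1 of 31 iron and haem genes (3.23%) and 1 of 42 antioxidant genes (2.38%) lay below the 6 others. Over all tested genes the share was 0.499%, and 1 member is no result about its list. The glycolytic enolase gene eno1a had 102, 121 and 104 CPM in SBM, 199, 167 and 125 CPM in D3, and 184, 149 and 160 CPM in FM. Only D3 library 3 came close to the highest SBM library, and the log2 fold change was −0.59 ± 0.19. Coproporphyrinogen oxidase, cpox, which acts late in haem synthesis, had 23.9, 21.3 and 20.8 CPM in SBM, 46.5, 49.0 and 29.5 CPM in D3, and 31.0, 28.4 and 34.7 CPM in FM. All SBM libraries lay below the others, but D3 was not clearly at the level of FM, with a difference of 0.41 ± 0.22 and an interval of −0.09 to 0.91. The sterol-associated membrane protein gene tmem97 averaged 62.5 ± 10.3 CPM in SBM against 93.8 ± 17.9 CPM in the others, and uckl1b, a homologue of uridine-cytidine kinases, 19.7 ± 2.38 against 27.1 ± 2.79 CPM. Both had a narrow gap. The highest SBM library had 74.2 CPM for tmem97 and 22.3 CPM for uckl1b, and D3 library 3 had 77.1 and 22.6 CPM. For prdx3, a peroxiredoxin of the mitochondrial matrix, SBM had 63.0, 78.3 and 77.8 CPM, D3 103, 98.6 and 84.7 CPM, and FM 95.5, 83.1 and 88.3 CPM. That gap was small, and the log2 fold change was −0.34 ± 0.15.

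The named genes below also include cd4-1, hhla2b.2 and btr12. The T helper cell co-receptor gene cd4-1 had 3.73, 3.46 and 3.71 CPM in SBM, 5.43, 6.90 and 4.29 CPM in D3, and 7.19, 6.52 and 8.06 CPM in FM. SBM was low and tight, FM was highest, and D3 lay between them with 1 library close to SBM. The log2 fold change was −0.82 ± 0.24, and D3 minus FM was −0.39 ± 0.24. Of the 20 tested T and NK cell markers cd4-1 was the only one outside the range (5%, against 0.499% of all tested genes below). Of these markers 15 were lower, with a median of −0.16, and log2 fold changes ran from −0.82 for cd4-1 to 1.35. At an unadjusted p under 0.05 in edgeR there were 1 lower, cd4-1, and 1 higher. For hhla2b.2, whose human namesake HHLA2 belongs to the B7 family of T cell regulators, SBM had 38.4, 36.4 and 34 CPM, D3 75.2, 77.9 and 44.2 CPM, and FM 45.4, 67.2 and 57.5 CPM. Here the spread of the 6 others was wide, 61.2 ± 14.6 CPM, and their lowest values were D3 library 3 and FM library 1. The tripartite-motif family gene btr12 averaged 3.35 ± 0.356 CPM in SBM, 4.72 ± 1.19 CPM in D3 and 6.11 ± 0.333 CPM in FM, so that D3 lay between SBM and FM.

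The remaining named lower genes have other roles. The regulatory myosin light chain gene myl9b, a smooth muscle gene, averaged 43.3 ± 2.77 CPM in SBM, 62.0 ± 7.43 CPM in D3 and 76.8 ± 19.7 CPM in FM, at −0.68 ± 0.21. It was the only one of 17 smooth muscle genes outside the range (5.88%, against 0.499% of all tested genes below). Of the 17 genes 12 were lower, with a median of −0.08. The dual-specificity phosphatase gene dusp23a had 3.90, 3.85 and 4.45 CPM in SBM, 7.67, 8.22 and 6.81 CPM in D3, and 8.18, 6.70 and 5.34 CPM in FM. SBM lay below both other groups, which overlapped, and D3 minus FM was 0.17 ± 0.23. The DEP domain gene depdc7 had a log2 fold change of −1.34 ± 0.42 at a mean of 1.18 ± 0.212 CPM in SBM against 2.99 ± 1.30 CPM in the others. Among unnamed loci, si:dkey-69o16.5 had 36.1, 48.5 and 27.8 CPM in SBM, 98.8, 103 and 56.7 CPM in D3, and 122, 120 and 59.8 CPM in FM. Its log2 fold change was −1.32 ± 0.32, with 1 low library in each of D3 and FM. LOC110440138 was at −1.22 ± 0.32, from 70 reads in SBM and 307 in the other libraries. Each of these genes had an adjusted p of 0.9997 in edgeR.

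**Figure D2:**
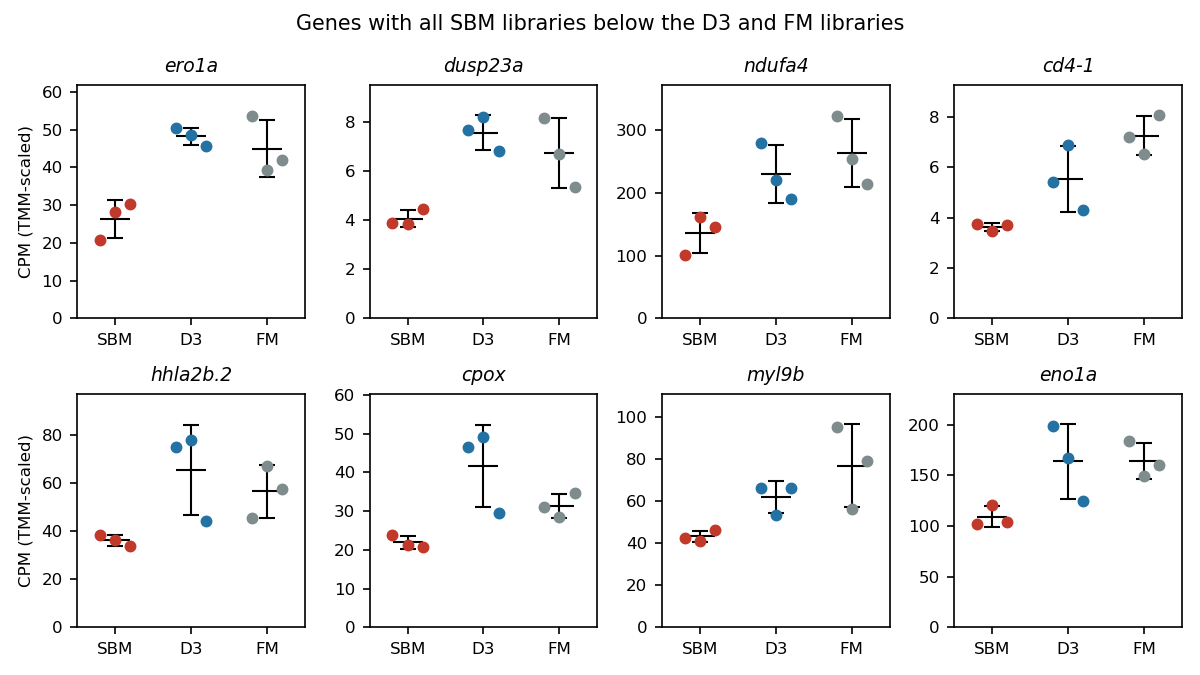
TMM-scaled CPM (y axis) of genes with all 3 SBM libraries below the 6 others, by group (x axis), with one point per library and the mean and SD per group. For ero1a the SBM points lie at 20.7 to 30.2 CPM and the D3 and FM points at 39.4 to 53.7 CPM.

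Nuclear-encoded genes of oxidative phosphorylation were the list with the most members below all other libraries, 5, while no other list had more than 1. Of 84 tested genes 82 were lower in SBM, with a median log2 fold change of −0.26, against 10101 of 19450 genes lower and a median of −0.01 over all tested genes. The median was −0.27 for SBM minus FM and −0.25 for SBM minus D3, 2 values that share the SBM libraries, and −0.02 for D3 minus FM. None of the 84 passed the adjusted test. At an unadjusted p under 0.05 there were 3, all lower, against 0.679% of all tested genes lower. The 5 members below the 6 others made up 5.95% of the list, against 0.499% of all tested genes.

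The low values ran through all 5 complexes. In complex I, which oxidises NADH, 33 of 33 genes were lower, with a median of −0.26. All 5 genes of complex II, the succinate dehydrogenase, were lower, with a median of −0.32, and 7 of 8 in complex III, with a median of −0.25. Cytochrome c oxidase, complex IV, had 20 of 21 lower, with a median of −0.27. The ATP synthase, complex V, had 17 of 17 lower, with a median of −0.26. D3 minus FM had a median of 0.07 in complex I, 0.06 in III and −0.02 in V, but −0.14 in II and −0.20 in IV. In complex II the list levels of D3 libraries 2 and 3, −0.30 and −0.31, lay under the −0.04 and −0.07 of SBM libraries 2 and 3. These genes are not independent of each other, since the same libraries set the value of each.

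The gene with the largest difference was ndufa4, first described as a complex I subunit and now assigned to complex IV, with which it was counted. It had 101, 162 and 145 CPM in SBM, 280, 220 and 190 CPM in D3, and 322, 255 and 214 CPM in FM. No SBM library reached the lowest of the others, and the D3 and FM libraries overlapped. SBM averaged 136 ± 31.8 CPM against 247 ± 48.9 CPM, 1.81-fold lower, and the log2 fold change was −0.86 ± 0.24. D3 minus FM was −0.20 ± 0.27, with an interval of −0.80 to 0.41. Its paralogue ndufa4l had a log2 fold change of −0.18 and did not lie outside the range. The authors' counting could have split reads between these paralogues.

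Smaller gaps were seen in an ATP synthase gene and in subunits of complex I. For atp5ia, subunit e of the ATP synthase, SBM had 18.6, 29.3 and 24.3 CPM, D3 35.3, 37.2 and 35.4 CPM, and FM 31.0, 30.0 and 33.0 CPM. SBM library 2 was close to the FM libraries, and the log2 fold change was −0.48 ± 0.17. For ndufb5, of the membrane arm, SBM had 40.2, 47.2 and 44.5 CPM, D3 66.2, 56.8 and 50.3 CPM, and FM 48.5, 48.6 and 52.4 CPM. The highest SBM library was again near FM, with a log2 fold change of −0.29 ± 0.15. The flavoprotein subunit genes ndufv2 and ndufv3 were the remaining members, and both had almost no gap. For ndufv2 the highest SBM library had 55.2 CPM and D3 library 3 had 55.6 CPM. For ndufv3, SBM library 3 and D3 library 3 both had 19.3 CPM when rounded. The log2 fold change was −0.26 for ndufv2 and −0.34 ± 0.15 for ndufv3.

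The level of the whole list, a mean over its genes of log2 CPM centred on the 9 libraries, was −0.41, 0.08 and −0.21 in SBM, 0.29, 0.12 and −0.23 in D3, and 0.12, 0.06 and 0.17 in FM. So the groups overlapped on the list as a whole: SBM library 2 lay among the FM libraries and D3 library 3 among SBM. The 2 libraries with the lowest list levels, SBM 1 and D3 3, were those highest in ovary and oocyte genes. Without them the median was −0.21, and 16 of 84 genes, 19%, lay below all others, against 3.55% of all tested genes. SBM 2, D3 1 and D3 2, the libraries highest in hepatocyte genes, had levels of 0.08, 0.29 and 0.12, and without them the median was −0.33, with 18 of 84 below, 21.4%, against 4.39%. Without D3 library 3 alone 21 genes were below, 25%, against 2.99%, and without SBM library 2 alone 19 genes, 22.6%, against 2.86%. These are the 2 libraries that overlapped the other side, so their removal favours a rise. Nor was the rise without SBM library 2 particular to this list. There 7 of 32 absorptive enterocyte markers (21.9%) and 9 of 43 hypoxia and glycolysis genes (20.9%) also lay below. Of the 87 genes in the cytosolic ribosomal list 1 did (1.15%). Without SBM library 1 the oxidative phosphorylation count was 5 genes, 5.95%, against 1.63%. Without SBM library 3 it was 6 genes, 7.14%, against 2%. The count was 3 without D3 library 1, FM library 1 or FM library 3, and 2 with scaling by total library size alone, where the median was −0.15 and that of all tested genes 0.11. The median was negative in all 20 settings, from −0.42 to −0.14.

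Genes that joined the list below the others without D3 library 3 were looked at after their values were seen. Among them sdha, the flavoprotein of succinate dehydrogenase, had 128, 151 and 131 CPM in SBM, 239, 179 and 122 CPM in D3, and 178, 199 and 219 CPM in FM. D3 library 3 was the only D3 or FM library within the SBM range or under it. For cox6b1, a subunit of complex IV, SBM had 107, 112 and 149 CPM, D3 212, 184 and 112 CPM, and FM 175, 216 and 205 CPM. The pattern was the same, with D3 library 3 at the level of SBM library 2.

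**Figure D3:**
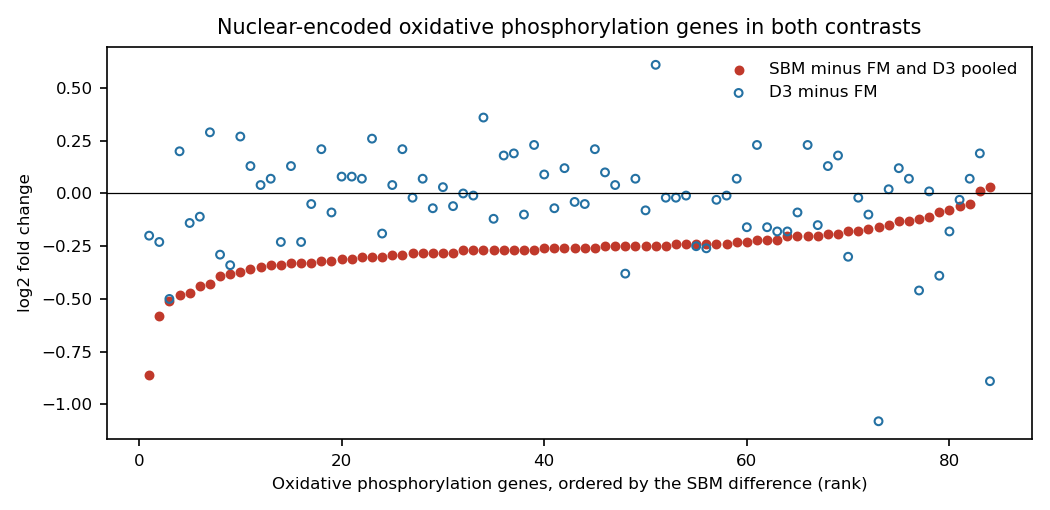
Log2 fold changes (y axis) of the 84 tested nuclear-encoded oxidative phosphorylation genes, ordered on the x axis by the SBM difference, with filled points for SBM minus D3 and FM pooled and open points for D3 minus FM. The filled points lie below 0 for 82 genes, with a median of −0.26, while the open points scatter on both sides of 0, with a median of −0.02.

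Of the 51 genes above in SBM, 22 had a mean of at least 1 CPM. They were fewer than the genes below with TMM scaling and more numerous with scaling by total library size alone. The transcription factor gene zbtb16a, known as PLZF in mammals, had 18.7, 14.1 and 22.8 CPM in SBM, 4.26, 8.74 and 13.7 CPM in D3, and 3.30, 6.25 and 2.49 CPM in FM. SBM was highest and FM lowest, and D3 spread from the FM range up to the lowest SBM library. The log2 fold change was 1.52 ± 0.49, and 1.34 to 1.91 in 20 settings. D3 averaged above FM for this gene, with a difference of 1.15 ± 0.48 and an unadjusted p of 0.0424, which did not pass adjustment in edgeR (0.3272). For frrs1a, a ferric reductase gene, SBM had 55.6, 57.1 and 69.8 CPM, D3 20.1, 34 and 35.3 CPM, and FM 21.5, 7.97 and 43.2 CPM. The 6 other libraries varied widely but stayed under the SBM libraries, at a log2 fold change of 1.17 ± 0.42. For igf2bp2a, an RNA-binding protein of the insulin-like growth factor 2 mRNA-binding family, SBM had 14.2, 13.7 and 16.6 CPM, D3 9.47, 7.83 and 10.7 CPM, and FM 6.59, 12.4 and 7.74 CPM. Its D3 minus FM difference was 0.07 ± 0.27, and its log2 fold change in SBM was 0.70 ± 0.22.

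Some genes of cell adhesion and structure were also among those above, which is no result about adhesion genes as a set. Of the 23 tested genes of the epithelial adhesion and structure list 17 were lower, with a median of −0.16. None of the 23 lay outside the range of the 6 others. The polarity scaffold gene dlg1 averaged 26.4 ± 2.24 CPM in SBM against 18.5 ± 3.68 CPM in the others. The focal adhesion gene pxnb, a paxillin, averaged 5 ± 0.898 against 3.51 ± 0.421 CPM, with a D3 minus FM difference of −0.01 ± 0.25. The matrix thrombospondin gene thbs3a averaged 1.48 ± 0.427 against 0.837 ± 0.183 CPM, and the centrosomal gene kiz 2.38 ± 0.751 against 1.34 ± 0.134 CPM. For these 4 genes the gap between the lowest SBM library and the highest other was at most 0.08 log2 units, so the order rests on 1 library on each side.

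Enzymes, receptors and a channel subunit completed the named higher genes. The kynurenine aminotransferase gene ccbl2 was at 0.52 ± 0.20, the phospholipid phosphatase gene plpp6 at 0.51 ± 0.20, and the O-fucosyltransferase gene pofut2 at 0.76 ± 0.33. For the vitamin D receptor gene vdra, SBM had 1.62, 1.99 and 1.58 CPM, D3 1.41, 0.52 and 1.17 CPM, and FM 0.89, 1.24 and 1.04 CPM. These are 19 to 67 reads per library, and the log2 fold change was 0.72 ± 0.33. It was the 1 gene of 16 in the bile acid and sterol signalling list outside the range (6.25%, against 0.262% of all tested genes above). Of the 16 genes 13 were lower, with a median of −0.27. The sodium channel beta subunit gene scn1ba was at 0.57 ± 0.27. The large Hsp110 chaperone gene hsph1 was at 0.50 ± 0.30, and its D3 level of 0.734 ± 0.0193 CPM lay nearer to the 0.861 ± 0.0796 CPM of SBM than to the 0.478 ± 0.0495 CPM of FM. The largest fold among unnamed loci, si:rp71-56i13.6, came from 1 library, with 16.9 CPM in SBM library 1 and 1.93 and 1.70 CPM in SBM libraries 2 and 3, against 0.162 to 1.06 CPM in the others. Its log2 fold change of 3.42 was 1.49 without SBM library 1. A second locus, si:dkey-74k8.4, was at 0.74 ± 0.25. The gap between the lowest SBM library and the highest other was only 0.04 log2 units for this locus and 0.05 for ccbl2. None of these genes was called, each with an adjusted p of 0.9997 in edgeR.

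**Figure D4:**
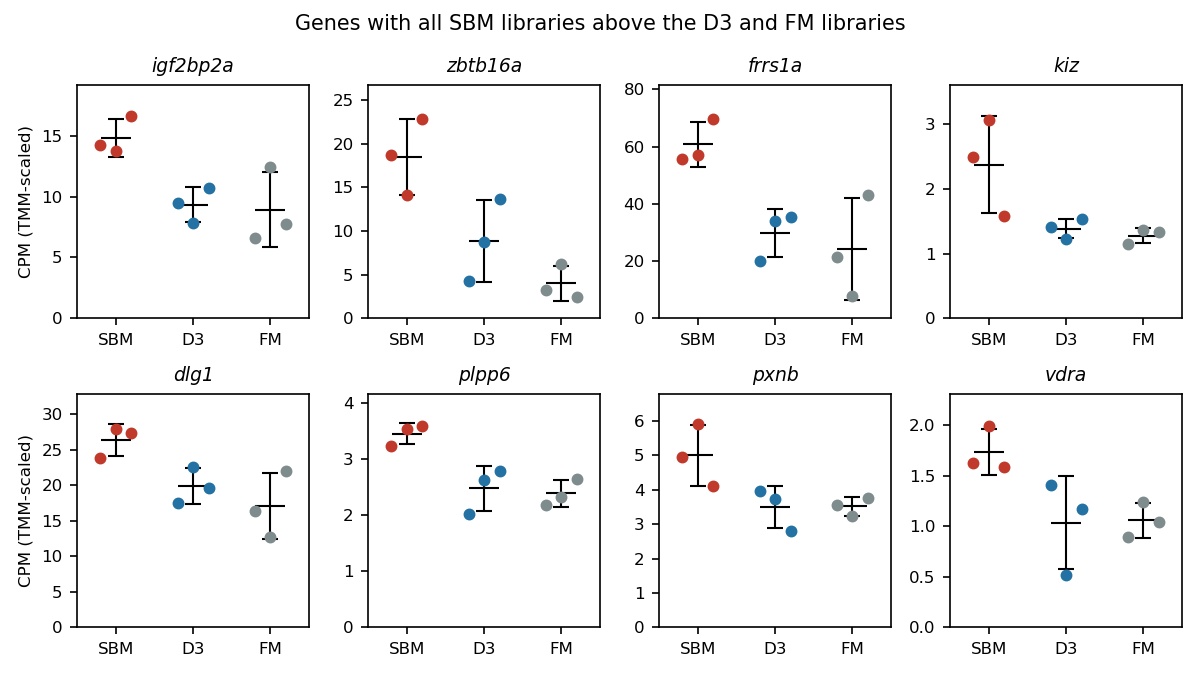
TMM-scaled CPM (y axis) of genes with all 3 SBM libraries above the 6 others, by group (x axis), with one point per library and the mean and SD per group. For zbtb16a the SBM points lie at 14.1 to 22.8 CPM, the D3 points at 4.26 to 13.7 CPM and the FM points at 2.49 to 6.25 CPM.

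Genes of inflammation and barrier function showed no difference particular to SBM that could be called. Of 32 tested genes of the panel, 25 were lower and 7 higher in SBM, with a median of −0.24, and none lay outside the range of the 6 others. An unadjusted p under 0.05 in edgeR was found for 1 of them, lower in SBM. Without D3 library 3, tnfb and ptgs2a lay below the others, at −0.96 and −1.35, and tnfb was looked at for this reason. D3 library 3 had the lowest level of the panel, −0.95, so its removal favours this. The cytokine gene il1b had 5.47, 7.87 and 8.40 CPM in SBM, 26.9, 11.4 and 2.90 CPM in D3, and 5.94, 5.28 and 5.99 CPM in FM. The high values were those of D3 libraries 1 and 2, and the SBM difference of −0.43 ± 0.64 was 0.19 without D3 library 1. For tnfa, SBM had 0.678, 1.27 and 2.58 CPM, D3 1.27, 0.52 and 0.719 CPM, and FM 2.57, 1.36 and 3.85 CPM. The SBM libraries spanned most of the range of the others, and the difference of −0.18 ± 0.67 had an interval of −1.69 to 1.33. The neutrophil chemokine gene cxcl8a was at −0.53 ± 0.50 and the regulatory cytokine gene il10 at 0.48 ± 0.78. The gene il22, a cytokine that acts on the epithelium, was at −0.92 ± 0.63, and the matrix protease gene mmp9 at −0.65 ± 0.48. For cxcl8a and il22 SBM minus FM was −0.96 ± 0.48 and −1.51 ± 0.52, while SBM minus D3 was 0.09 ± 0.48 and 0.08 ± 0.51. For mmp9 SBM minus FM was 0.01 ± 0.42 and SBM minus D3 −1.09 ± 0.43. So SBM lay near D3 for cxcl8a and il22, and near FM for mmp9. For il10 the value was −0.36 without SBM library 3. For ptgs2a, which makes prostaglandins, the difference was −1.17 ± 0.56, and for nos2a, which makes nitric oxide, 0.46 ± 0.38. The cytokine gene il6 had too few reads to be tested, with 4, 0 and 2 in SBM, 8, 9 and 0 in D3, and 3, 1 and 0 in FM. The tight junction genes tjp1a and oclna were near 0, at −0.08 ± 0.14 and −0.15 ± 0.26, and intervals of −0.39 to 0.22 and −0.74 to 0.44.

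For hmox1a, the inducible haem oxygenase, the pooled comparison hid the grouping of the libraries. SBM had 29.6, 26.7 and 12.2 CPM, D3 24.6, 20.2 and 12.5 CPM, and FM 233, 140 and 121 CPM. SBM and D3 overlapped and FM stood above both. The pooled log2 fold change of −2.01 ± 0.97 averages over this, while D3 minus FM was −3.11 ± 0.44, with an interval of −4.12 to −2.10 and an adjusted p of 0.3204 in edgeR. The D3 libraries lay at the SBM level for this gene, not in the FM range.

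Several lists of absorptive and metabolic genes were mostly lower in SBM, and in these D3 also had a negative median against FM. Of 32 absorptive enterocyte markers 30 were lower, with a median of −0.46, and D3 minus FM had a median of −0.57. The list level was −0.43, 0.43 and −1.06 in SBM, −0.50 to 0.47 in D3 and 0.14 to 0.60 in FM, so SBM spanned nearly the whole range of the others. Lipid absorption and lipoprotein genes were lower in 31 of 37, with a median of −0.45, and fatty acid oxidation genes in 33 of 37, with a median of −0.21. Without SBM library 2 these 3 medians were −1.07, −1.11 and −0.54, and without SBM library 1 that of fatty acid oxidation was −0.06. Peptide and amino acid handling was lower in 24 of 28 genes, with a median of −0.25 that ran from −0.46 without SBM library 2 to −0.09 without SBM library 1, and ion transport of the gut in 24 of 29, with a median of −0.27. None of the genes in these 5 lists was called in edgeR, and none of the 5 lists had a gene outside the range of the 6 others. An unadjusted p under 0.05 was found for 2 of the 29 ion transport genes, 1 higher and 1 lower in SBM. No gene in the rest of these 5 lists had one, and over all tested genes the share was 1.41%.

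Without D3 library 3 some genes of the lipid absorption, fatty acid oxidation and ion transport lists did lie below the others. Absorptive enterocyte markers and peptide handling genes did not, and the share of all tested genes was 2.99%. With SBM library 2 left out instead, 7 of 32 absorptive enterocyte markers (21.9%) and 2 of 28 peptide handling genes (7.14%) did, against 2.86%. The following genes were looked at because they lay below without D3 library 3. The sterol uptake transporter gene npc1l1 had 123, 177 and 150 CPM in SBM, 220, 277 and 128 CPM in D3, and 212, 252 and 239 CPM in FM. The lipoprotein gene apoa4b.3 had 143, 177 and 166 CPM in SBM, 283, 321 and 77.3 CPM in D3, and 228, 251 and 267 CPM in FM. For hadhb, the beta subunit of the mitochondrial trifunctional protein, SBM had 87.1, 131 and 122 CPM, D3 142, 152 and 100 CPM, and FM 173, 186 and 159 CPM. In these genes D3 libraries 1 and 2 lay above SBM, at or near the FM range, while D3 library 3 lay within the SBM range or under it. The lactate dehydrogenase gene ldha, from the hypoxia and glycolysis list, had 215, 415 and 191 CPM in SBM. It had 551, 466 and 248 CPM in D3, and 469, 520 and 454 CPM in FM. There SBM library 2 was also near the others.

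Lists of protein synthesis and turnover were lower by small amounts. The list of cytosolic ribosomal proteins also holds ribosomal S6 kinase genes, rps6ka1 and rps6ka5 among them, which do not encode ribosomal proteins. Its genes were lower in 83 of 87, with a median of −0.21, and D3 minus FM had a median of −0.30. Their median was −0.50 with SBM library 2 left out and −0.08 with SBM library 1 left out. Proteasome subunit genes were lower in 32 of 35, with a median of −0.20, but SBM minus FM was −0.01 and D3 minus FM 0.42, so in median SBM lay below D3 and near FM. Interferon-stimulated genes were lower in 33 of 38, with a median of −0.42, and D3 minus FM was −1.0. Immediate early genes were lower in 29 of 35, with a median of −0.23, and D3 minus FM was −0.55. With SBM library 1 left out the medians were −0.20 for interferon-stimulated and −0.10 for immediate early genes, and the lowest over libraries left out were −0.55 and −0.35. In these lists SBM did not stand apart from both D3 and FM in median, unlike in oxidative phosphorylation. Differences between lists were not tested, and oxidative phosphorylation was not the only list with medians below both groups. For macrophage and dendritic cell markers the medians were −0.27 for SBM minus FM and −0.22 for SBM minus D3. For lipid absorption genes they were −0.50 and −0.31. Hypoxia response and glycolysis genes were lower in 31 of 43, with a median of −0.16 and a D3 minus FM median of −0.08, and antioxidant genes and targets of the stress regulator Nrf2 in 35 of 42, with a median of −0.17 that ran from −0.44 without SBM library 2 to −0.10 without SBM library 1.

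Among markers of other tissues and of proliferation, ovary, testis, hepatocyte and proliferation genes had positive medians and vitellogenin genes a negative one, and each median moved widely with the libraries used. Ovary and oocyte genes were higher in 22 of 23, with a median of 0.78. Leaving out SBM library 1 gave −1.20, and leaving out D3 library 3 gave 3.19. Testis and meiosis genes were higher in 11 of 11, with a median of 1.46, or 0.65 when SBM library 2 was left out and 3.37 when D3 library 3 was. None of them lay outside the range of the 6 others, but 5 of 11, 45.5%, lay above without D3 library 3, against 2.83% of all tested genes. Without SBM 1 and D3 3 it was 6 of 11, 54.5%, against 4.24%. D3 library 3 had the highest level of this list, 2.33, against 1.39, 2.16 and −0.28 in SBM. Its removal in both settings thus favours such a rise, and the shares are no separate evidence. Hepatocyte genes were higher in 23 of 24, with a median of 0.88, which was −2.29 without SBM library 2. Vitellogenin genes were lower in 7 of 7, with a median of −2.04, and D3 library 2 held them at 4.81% of counts. Their median was 5.17 without that library and −6.80 without SBM library 2. Proliferation genes were higher in 40 of 47, with a median of 0.40, and with −0.69 once SBM library 1 was left out and 1.14 once D3 library 3 was. D3 minus FM was 2.23 for proliferation. The list levels of proliferation were 1.56, −0.66 and 0.20 in SBM, 0.19, −0.06 and 1.88 in D3, and −0.79, −1.19 and −1.13 in FM, highest in the same libraries as the ovary genes. None of these genes was called in edgeR. An unadjusted p under 0.05 was found for 2 of the 11 testis genes, both higher, against 0.735% of all tested genes higher.

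**Figure D5:**
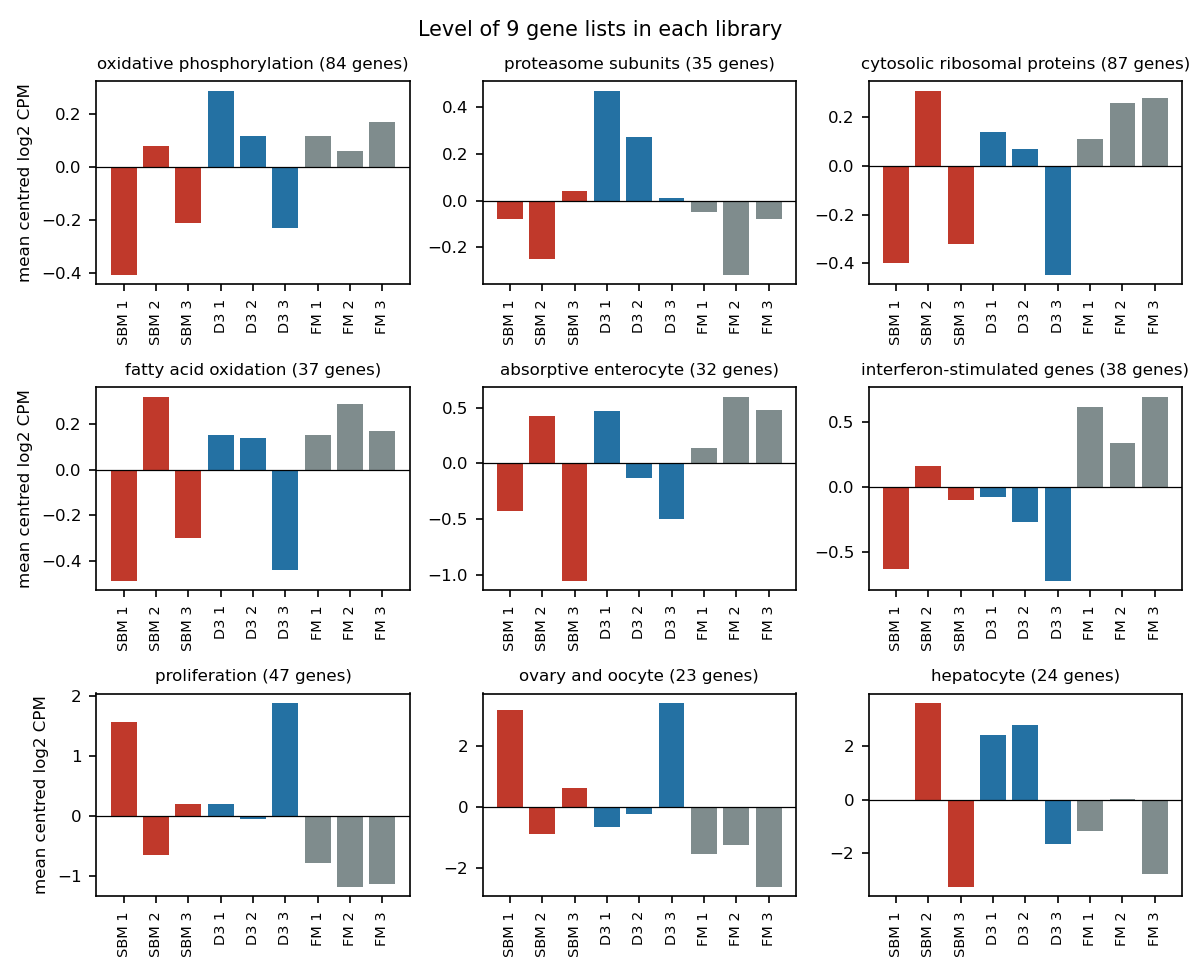
Mean centred log2 CPM (y axis, scaled separately in each panel) of 9 gene lists, with one bar for each library (x axis), coloured by group. For oxidative phosphorylation SBM lies at −0.41 to 0.08, D3 at −0.23 to 0.29 and FM at 0.06 to 0.17, and in every list shown the SBM libraries overlap the range of the 6 others.

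Leucocyte and stromal markers had medians of −0.30 to 0.05. Neutrophil markers were lower in 11 of 12 genes, with a median of −0.30. Their median was 0.08 for SBM minus FM, −0.34 for SBM minus D3 and 0.79 for D3 minus FM, so in median SBM lay near FM and D3 above it. The D3 libraries were split, with list levels of 0.86, 0.89 and −0.62, against −0.27, −0.44 and 0.04 in FM. D3 library 3 thus lay under all FM libraries. Macrophage and dendritic cell markers were lower in 13 of 17, with a median of −0.29, and D3 minus FM was −0.04. B cell and plasma cell markers had a median of 0.05, goblet cell markers −0.16, enteroendocrine markers −0.01 and endothelial markers −0.04. Fibroblast and matrix genes had a median of −0.10 and enteric neuron and glia genes −0.02. Exocrine pancreas genes, which took 8.12 to 19.1% of counts over the 9 libraries, had a median of −0.12. No gene of these lists lay outside the range of the 6 others, and none was called in edgeR or had an unadjusted p under 0.05.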

How the data were processed

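RNA-seq was run on 9 intestine libraries of zebrafish, 3 each labelled SBM, D3 and FM. The authors deposited raw counts per gene and FPKM values, and the FPKM equal count divided by gene length and library total within 0.000122%, so FPKM was used for 1 alternative only. RNA was extracted with an RNeasy kit and libraries made with a SMARTer kit, per the labels' protocols. Aligner, counting tool, strand setting and genome build were not stated, so reads of genes that overlap or lie antisense to each other may be mixed.

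The count analysis used edgeR 4.0.16 (R 4.3.3), and filterByExpr at a minimum count of 10 left 19450 of 26983 genes, removing 7533. TMM factors ran from 0.8464 to 1.204. SBM was tested against D3 and FM pooled in a 2-group quasi-likelihood fit with 7 residual degrees of freedom, two-sided, with Benjamini-Hochberg adjustment and calls at 0.05. The biological coefficient of variation was 57%. Pairwise values, D3 minus FM among them, come from a 3-group fit with 6 residual degrees of freedom and a coefficient of 50.5%. The scripts were tested on simulated data. Replicates of a group differed far beyond sampling noise, with a chi-square of 65.9 to 581 per degree of freedom. Total counts of 34436497 to 36203230 set the counting precision.

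The 45 gene lists held 1349 names, of which 1250 matched by symbol and 45 by RefSeq synonym (assembly GRCz12tu, for names only). They and the comparison were chosen with earlier results of these data known. Named genes were, among genes outside the range with a mean of at least 1 CPM, the 12 with the smallest p in each direction and 2 clone or locus names in each. To these were added up to 4 members of each list outside the range, at any level, and 12 panel genes. Genes named outside this rule are said to be so in the text. Intervals are at the 95% level. Alternatives covered scaling, filtering, the 3-group fit, a replicate block, DESeq2 1.42.0, limma 3.58.1, and leaving out libraries.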

Additional observations from a re-analysis of the deposited data

Results flagged for a closer look

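Among the 44 named genes, 3 had 1 of the 6 D3 and FM libraries far from the other 5 by Dixon's criterion at the 95% level, which chance meets in about 1 in 20 groups. For pofut2, FM library 2 was low at 0.634 CPM, while the others had 1.25 to 1.78 CPM. For si:dkey-74k8.4, FM library 1 was high at 2.64 CPM, while the others had 1.45 to 1.75 CPM, and this library was the one nearest to SBM. For cxcl8a, D3 library 3 was low at 1.73 CPM, while the others had 6.15 to 12.2 CPM.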

How the results depend on the processing

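No gene was called in 18 of 20 alternatives, and 1 or 2 were called in the others: leaving out a library gave 0 to 1 call, and DESeq2 gave 2. The 44 named genes had 877 alternative values, of which 13 changed sign, in 5 genes, and none passed the adjusted threshold. For il1b the log2 fold change ran from −0.61 to 0.19 over libraries left out, and was 0.47 without the 3 libraries highest in hepatocyte genes and 0.06 with limma on log2(FPKM + 0.1). For tnfa it ran from −0.84 to 0.23 over libraries left out, and was 0.07 with total library size alone, 0.04 in the 3-group fit, 0.05 without the 2 libraries highest in ovary genes and 0.06 with FPKM. For tjp1a it was 0.06 with library size alone and 0.04 with FPKM. For il10 it ran from −0.36 to 0.83 and for oclna from −0.38 to 0.01 over libraries left out.

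The count of genes outside the range, 148, was 213 to 1153 over libraries left out, 1515 with SBM 1 and D3 3 left out and 1355 with SBM 2, D3 1 and D3 2 left out. Fewer libraries make the condition easier to meet. D3 against FM, with 0 calls and 2954 genes at an unadjusted p under 0.05 in edgeR, had 909 calls with DESeq2 and 2053 without the 3 libraries highest in hepatocyte genes, where D3 library 3 alone stands for D3 and is assumed to vary like the other groups. At an unadjusted p under 0.05 the count of 275 was 614 with no filter on low counts and 181 with a mean of at least 1 CPM. It was 712 without the 2 libraries highest in ovary genes. In the 3-group fit, with SBM against the mean of FM and D3, it was 406. Scaling by library size alone moved the median of all tested genes by over 0.1, to 0.11.

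Of 900 alternative list medians, 32 moved by more than 1 SD of the libraries' levels; the cause was not tested. Without the 3 libraries highest in hepatocyte genes the medians were −0.69 for exocrine pancreas, −0.45 for endocrine pancreas, −0.52 for enteroendocrine, −0.33 for endothelium, −1.06 for absorptive enterocyte, −0.39 for hypoxia, 0.07 for proteasome and −0.50 for ion transport. With library size alone they were −0.02 for epithelial adhesion and 0.06 for zinc genes, also 0.06 without the 2 libraries highest in ovary genes. With FPKM they were 0.01 for T and NK cells, −0.02 for epithelial adhesion and −0.11 for ion transport. Over libraries left out they ran from −1.20 to 3.19 for ovary, 0.65 to 3.37 for testis, −2.29 to 1.55 for hepatocyte, −6.80 to 5.17 for vitellogenin, −0.39 to 0.38 for endocrine pancreas and −1.27 to 1.15 for red cell. The ranges were −0.17 to 0.34 for B cells, −0.39 to 0.19 for enteroendocrine, −0.27 to 0.06 for endothelium, −0.95 to 0.11 for skeletal muscle, −1.07 to −0.25 for absorptive enterocyte and −0.41 to −0.04 for hypoxia. They were −0.54 to −0.06 for fatty acid oxidation, −0.75 to 0.09 for carbohydrate digestion, −0.46 to −0.03 for retinoids, −1.70 to 1.00 for complement and −0.47 to −0.23 for ion transport.

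The replicate numbers were not taken as pairs: deviations of same-numbered SBM and FM libraries correlated at 0.073, 0.183 and 0.288, of SBM and D3 at −0.578, 0.519 and −0.031, and of D3 and FM at −0.069, 0.021 and −0.070. With the replicate block 0 genes were called, 171 had an unadjusted p under 0.05, and not every library correlated best with its own number. Depth was even over libraries, and the spread between them limited the test more than counting did. The coefficient of variation was 57% with D3 and FM pooled, where a difference between D3 and FM adds to it, and 50.5% with 3 groups.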

Other observations

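Other gene lists gave the following values. Xenobiotic metabolism genes, which modify and export foreign compounds, were lower in SBM in 37 of 49, with a median log2 fold change of −0.31, and D3 minus FM had a median of −0.36. The median was negative in all 20 settings, from −0.58 to −0.11. Cholesterol biosynthesis genes were lower in 23 of 31, with a median of −0.08 that ran from −0.36 to 0.18 over libraries left out, and circadian clock genes in 23 of 33, with a median of −0.17. Iron and haem genes had a median of −0.09, retinoid handling genes −0.10, carbohydrate digestion genes −0.11, epithelial adhesion genes −0.16, zinc and metallothionein genes −0.07 and heat shock genes −0.01. Markers of lysosome-rich enterocytes had a median of −0.08 that ran from −0.35 to 0.11, while D3 minus FM was −0.93 for them. Complement genes had a median of −0.07, or −1.70 when SBM library 2 was left out and 1.00 when D3 library 2 was. Red cell genes were at 0.26 and skeletal muscle genes at −0.34. None of these genes was called in edgeR, and 5 of them had an unadjusted p under 0.05, against 1.41% of all tested genes.

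Some genes had their 2 highest values in SBM library 1 and D3 library 3, and these examples were picked after their values were seen. The epithelial adhesion gene epcam had 636, 43.7 and 121 CPM in SBM, 28.5, 35.4 and 669 CPM in D3, and 27.8, 23.1 and 21.6 CPM in FM. The meiotic cohesin gene rad21l1 had 12.6, 2.84 and 1.34 CPM in SBM, 0.443, 0.685 and 11.8 CPM in D3, and 0.594, 0.483 and 0.129 CPM in FM. The glycolytic gene tpi1a had 22, 1.76 and 2.66 CPM in SBM, 0.748, 1.31 and 22.9 CPM in D3, and 0.791, 0.936 and 0.777 CPM in FM. For each of the 3 genes SBM libraries 2 and 3 also lay above D3 libraries 1 and 2 and all FM libraries.

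Genes below the filter on low counts were not tested. Among all 26983 genes of the count table, 14 had at least 1 read in every SBM library and none in the 6 others. All 14 were below the filter, with 1 to 6 reads per library, among them lrrc72 with 2, 5 and 3 reads. In the other direction, 3 genes had no read in SBM and at least 1 in each of the 6 others: LOC101883010, LOC108191475 and grin1a, a glutamate receptor gene with 1 to 10 reads per library. The conditions in the 2 directions are unlike, so 14 and 3 cannot be compared. Such genes were not counted for D3 or FM, so neither number is read as a trait of SBM.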
